A study of Mus musculus with 14 samples.

Results

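The genes described here encode the enzymes that build cholesterol and fatty acids and the proteins that control their transcription. They were 30 genes taken from a written list of the pathway and matched by gene symbol, and 29 of them were listed in the count tables of both oocyte stages, among 16417 genes listed in both. The list held 7 genes of the mevalonate steps (Acat2, Hmgcs1, Mvk, Pmvk, Mvd, Idi1, Fdps), 3 of the squalene and lanosterol steps (Fdft1, Sqle, Lss) and 8 of the steps after lanosterol (Cyp51, Tm7sf2, Msmo1, Nsdhl, Hsd17b7, Ebp, Sc5d, Dhcr7). It also held 5 genes of transcriptional control by sterol (Srebf1, Srebf2, Scap, Insig1, Insig2) and 7 of fatty acid synthesis (Acly, Acaca, Fasn, Scd1, Scd2, Elovl5, Elovl6). Mvk, which encodes mevalonate kinase, was listed for germinal vesicle (GV) oocytes alone.

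Cholesterol is made from acetyl-CoA through mevalonate, isoprenoid diphosphates, squalene and lanosterol, and fatty acids are made from the same acetyl-CoA through malonyl-CoA. The transcription factors SREBP1 and SREBP2 turn most of these genes on after the sterol sensor SCAP has carried them out of the endoplasmic reticulum, and INSIG proteins hold SCAP back when sterol is plentiful. Mouse oocytes are known to make little cholesterol themselves and to obtain it from the cumulus cells around them. A full-grown GV oocyte is close to silent in transcription, so the mRNAs of an ovulated oocyte are largely those stored before, changed by lengthening or shortening of their poly(A) tails and by decay.

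The study sequenced RNA of mouse oocytes in 14 libraries made with SMART-Seq2, a full-length cDNA method for very small samples. There were 3 libraries of ovulated oocytes and 4 of GV oocytes from Clpx fl/fl; Zp3-Cre mice, labelled CKO, and 3 of ovulated oocytes and 4 of GV oocytes from Clpx fl/fl mice, labelled WT. The titles of the ovulated WT libraries write Clpx fl/f, while their genotype field reads as in the other WT libraries, and that field is followed here. By it every animal carried the floxed Clpx alleles, and the genotypes differed by the Zp3-Cre transgene, which is driven by the promoter of a zona pellucida gene and recombines in growing oocytes, so WT libraries held no Cre. CLPX is the unfoldase of a protease of the mitochondrial matrix. Ages, strain background, the number of oocytes or animals behind a library and how ovulated oocytes were freed of cumulus cells were not given in the sources used here, so p-values measure the spread between these libraries, which may be technical. The stages were deposited as separate tables, and stage and any batch between them cannot be told apart.

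Total counts per library were between 25086506 and 28471453. Clpx averaged 0.437 ± 0.155 CPM (counts scaled to a library size of 1e+06) in ovulated CKO libraries and 18.2 ± 1.07 CPM in ovulated WT libraries (SD, n = 3 each). It averaged 1.10 ± 0.358 CPM in GV CKO libraries and 44.3 ± 9.21 CPM in GV WT libraries (SD, n = 4 each), so each library stood where its genotype label put it. On the log2 scale Clpx in CKO over WT changed by -5.38 (SE 0.441, edgeR adjusted p = 0.00123) in ovulated oocytes and -5.33 (SE 0.305, edgeR adjusted p = 6.48e-06) in GV oocytes. All 14 oocyte markers averaged at least 1 FPKM in every group (a level scaled to gene length and library size, deposited by the authors). Of 19 granulosa and cumulus markers, 17 were listed at each stage. Ptx3 and Tnfaip6 were not listed for GV oocytes, nor Foxl2 and Amh for ovulated oocytes, so the sums cover unlike sets. The summed level of those listed was 33.7 to 48.6 FPKM in ovulated CKO libraries and 34.3 to 63.6 FPKM in ovulated WT libraries. In GV oocytes it was 13.4 to 31.3 FPKM in CKO libraries and 21.2 to 33.8 FPKM in WT libraries. Most of that sum was Cyp19a1 in every library. Of the 17 markers listed in GV oocytes, 3 averaged at least 1 FPKM in each genotype: Cyp19a1, Cyp11a1 and Nr5a2. In ovulated oocytes 4 did so in CKO and 5 in WT libraries. These were the same 3 and Kitl, at 1.49 FPKM in CKO and 1.56 FPKM in WT libraries. The fifth, in WT libraries alone, was Tnfaip6, at 3.39 ± 5.70 FPKM (SD). In GV oocytes Cyp11a1 averaged 1.67 FPKM in CKO and 3.37 FPKM in WT libraries, and Nr5a2 2.06 and 3.32 FPKM. Foxl2 and Amh did not exceed 0.02 and 0.05 FPKM in any GV library. In a bulk library, fewer cells of a type and less RNA per cell cannot be told apart.

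The 3′ ends of the mRNAs are shown first, because the cytoplasmic polyadenylation element near the end of a 3′ UTR is the best known sequence that marks stored mRNAs for a longer poly(A) tail during maturation. The letters TTTTAT or TTTTAAT, in the sense direction, were searched in the last 150 bases of the 3′ UTR (GENCODE annotation of the same build, GRCm38), and the capitals mark the match. Among the 25 genes tested between stages whose 3′ UTR was long enough, 5 held a match. These were the sites of Insig1, Msmo1 and Sc5d, whose CPM rose in ovulated WT oocytes, of Lss, whose CPM fell, and of Idi1, which did not pass the test.
Insig1: tttttttttacTTTTATtaaaggttcaa
Msmo1: tagctgccatgTTTTATtcttataagga
Sc5d: TTTTATtggtgaatagt
Lss: tactaagatgtTTTTATttaaataaatt
Idi1: aaaataaattaTTTTAATattgtctggct
The match of Insig1 began 22 bases before the end of the transcript and that of Msmo1 54 bases before it, while those of Lss, Idi1 and Sc5d began 79, 87 and 150 bases before it. Scd1, too low to test, held a match that began 131 bases before the end. Fdft1, alone in the list, had no polyadenylation signal (AATAAA or ATTAAA) in the window, so its annotated end is less sure. The rest of the genes tested had no TTTTAT or TTTTAAT in that window, among them Fdft1, Mvd and Nsdhl. Over all genes tested with such a window, a match was present in 36.7% of those whose CPM rose in ovulated WT oocytes over GV WT oocytes, in 14.8% of those whose CPM fell and in 25.8% of the total. Among the pathway genes it was 3 of 6 that rose and 1 of 9 that fell. Between CKO stages it was 1 of 4 that rose and 0 of 5 that fell, against 37.5% and 15.1% of all genes. These are too few genes to set the shares of the pathway apart from those of all genes in either genotype. The WT calls of Sc5d and Lss also depended on the processing, as given below. SMART-Seq2 in its usual form primes from the poly(A) tail, so an amount of mRNA and a length of tail cannot be told apart in these values.

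The promoter of Hmgcs1 is shown because it was the single promoter searched with an exact match to the classical sterol regulatory element, a binding sequence of SREBP. RefSeq promoters (GRCm38.p6) reaching from 250 bases before to 50 bases after the start site were found for 25 of the 30 genes and searched on both strands. None was found for Fdps, Fdft1, Sqle, Scd1 and Scd2. The letters TCACNCCAC occurred in 1 of 25, against 1.44% of 27025 genes, and began 137 bases before the start site of Hmgcs1. Sites that differ from these letters, or lie outside this window, were not searched, so the other promoters are not shown to lack a site for SREBP. The CCAAT box, the letters CCAAT bound by NF-Y, a partner of SREBP, occurred in 21 of 25, against 41.1% of genes, and the E-box CACGTG in 6 of 25, against 8.09%. In the Hmgcs1 promoter, chr13:119690101-119690400 on the plus strand, the capitals mark the sterol regulatory element and 4 CCAAT boxes, read as ATTGG on the printed strand.
Hmgcs1: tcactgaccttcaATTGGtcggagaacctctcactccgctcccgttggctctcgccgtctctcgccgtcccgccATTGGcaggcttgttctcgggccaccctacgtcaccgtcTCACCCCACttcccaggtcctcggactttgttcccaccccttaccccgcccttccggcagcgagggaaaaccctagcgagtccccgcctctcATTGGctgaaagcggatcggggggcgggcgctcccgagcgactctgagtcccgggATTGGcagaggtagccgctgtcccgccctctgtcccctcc

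Levels per gene length set a few of these mRNAs far above the others. In GV oocytes the highest was Fdft1, squalene synthase, with 473 ± 74.1 FPKM in CKO libraries and 479.9 ± 42.3 FPKM in WT libraries (SD, n = 4 each), above 98.8% of all genes listed in CKO and 98.9% in WT. Next came Elovl5, a fatty acid elongase, Hmgcs1, HMG-CoA synthase, Insig1 and Sc5d, a sterol desaturase, with mean levels between 53.5 and 106 FPKM in the GV groups. In GV CKO libraries the ranges of these genes all overlapped. In GV WT libraries the range of Elovl5 overlapped that of Hmgcs1, Hmgcs1 that of Insig1, and Insig1 that of Sc5d. In ovulated oocytes Insig1 had the highest mean, with 316 ± 46.5 FPKM in CKO libraries and 278 ± 115 FPKM in WT libraries (SD, n = 3 each). Its lowest ovulated WT library, at 174.6 FPKM, lay below the highest of Elovl5, at 181.5 FPKM. Hmgcs1, Elovl5 and Sc5d followed Insig1, with mean levels between 108 and 160.0 FPKM. Their ranges overlapped in ovulated WT libraries, while in ovulated CKO libraries those of Hmgcs1 and Elovl5 overlapped and Sc5d lay below both. Below these the order was not clear of the spread: the fifth mean was that of Fdft1 in ovulated CKO libraries, at 49.8 ± 38.6 FPKM, and by Scap in ovulated WT libraries, at 36.1 ± 15.7 FPKM. The range of Fdft1 overlapped that of Scap in the first group, and the range of Scap that of Msmo1 in the second.

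Under 1 FPKM in every group were Pmvk, phosphomevalonate kinase, Acaca, acetyl-CoA carboxylase, the stearoyl-CoA desaturases Scd1 and Scd2, and the elongase Elovl6. Mvk was under it in both GV groups, with at most 11 counts in any GV library. Scd3, a stearoyl-CoA desaturase gene outside the list, was higher than Scd1 and Scd2. It averaged 6.85 FPKM in GV CKO and 5.935 FPKM in GV WT libraries, and 4.37 FPKM in both ovulated groups. The lowest and highest counts of Scd3 in each group were fractional, a sign of reads shared with another gene. Its level is uncertain to that extent. The enzymes of one pathway thus stood at very unequal mRNA levels. The summed level of the squalene and lanosterol genes was 13.3 to 92.0 FPKM in ovulated CKO libraries and 11.0 to 29.7 FPKM in ovulated WT libraries, against 408 to 555 FPKM in GV CKO libraries and 452 to 546 FPKM in GV WT libraries. The 5 control genes summed to 342 to 423 FPKM in ovulated CKO libraries and 236 to 433 FPKM in ovulated WT libraries, against 58.6 to 125 FPKM in GV CKO libraries and 57.7 to 109 FPKM in GV WT libraries. Neither sum overlapped between stages, and Fdft1 gave most of the first sum in every library and Insig1 most of the second.

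**Figure D1:**
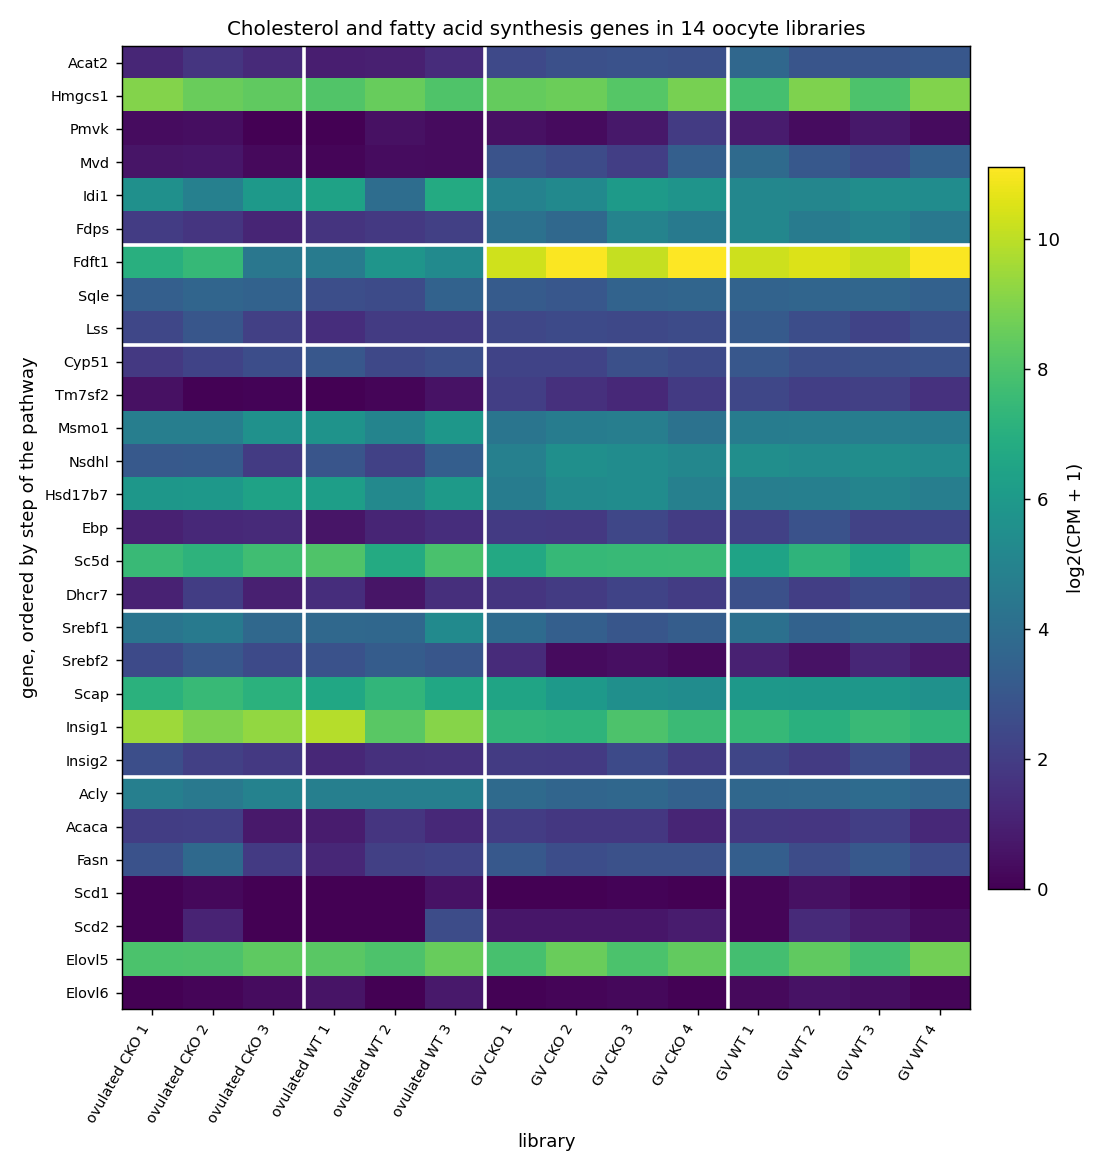
Level of the 29 genes listed at both stages in each of the 14 libraries, as log2(CPM + 1), with libraries in columns by group and genes in rows by step of the pathway. Fdft1 is the brightest row in the 8 GV libraries and dimmer in the 6 ovulated ones, while Insig1 is brighter in the 6 ovulated libraries.

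The next comparison asks how these mRNAs differed between ovulated and GV oocytes. Between the WT stages 7 of the 28 genes tested rose, 11 fell and 10 did not pass the test (edgeR quasi-likelihood test, adjusted p under 0.05 over 13158 genes). Of all genes tested, 63.7% passed, 29.7% higher and 34.0% lower, so a change was common in this comparison. The median log2 fold change, ovulated over GV, was -0.48 over the pathway genes and -0.08 over all genes. In 17 of the 28 the WT groups did not overlap, against 62.3% of all genes. In CKO oocytes 5 of the 28 rose and 7 fell, where 55.7% of all genes passed, 25.8% higher and 29.9% lower. Their median was 0.06, against -0.14 over all genes, and 12 of the 28 did not overlap between the CKO stages, against 58.6% of all genes.

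All 12 genes that passed in CKO oocytes also passed in WT oocytes in the same direction, and 6 more passed in WT oocytes alone: Msmo1, Sc5d, Dhcr7, Fasn, Lss and Insig2. Each of the 4 groups enters both this comparison and the genotype comparisons below, so these counts are not independent of those. Fold changes are relative to TMM scaling, and scaling to total counts moved the median of all genes up by 0.34 in WT oocytes and 0.59 in CKO oocytes on the log2 scale. With that scaling 8 pathway genes rose and 8 fell in WT oocytes, where 4471 of all 13158 genes rose and 3515 fell. In CKO oocytes 10 rose and 5 fell, where 4688 of all genes rose and 2257 fell. All CPM below come from 1 scaling of the 14 libraries.

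**Figure D2:**
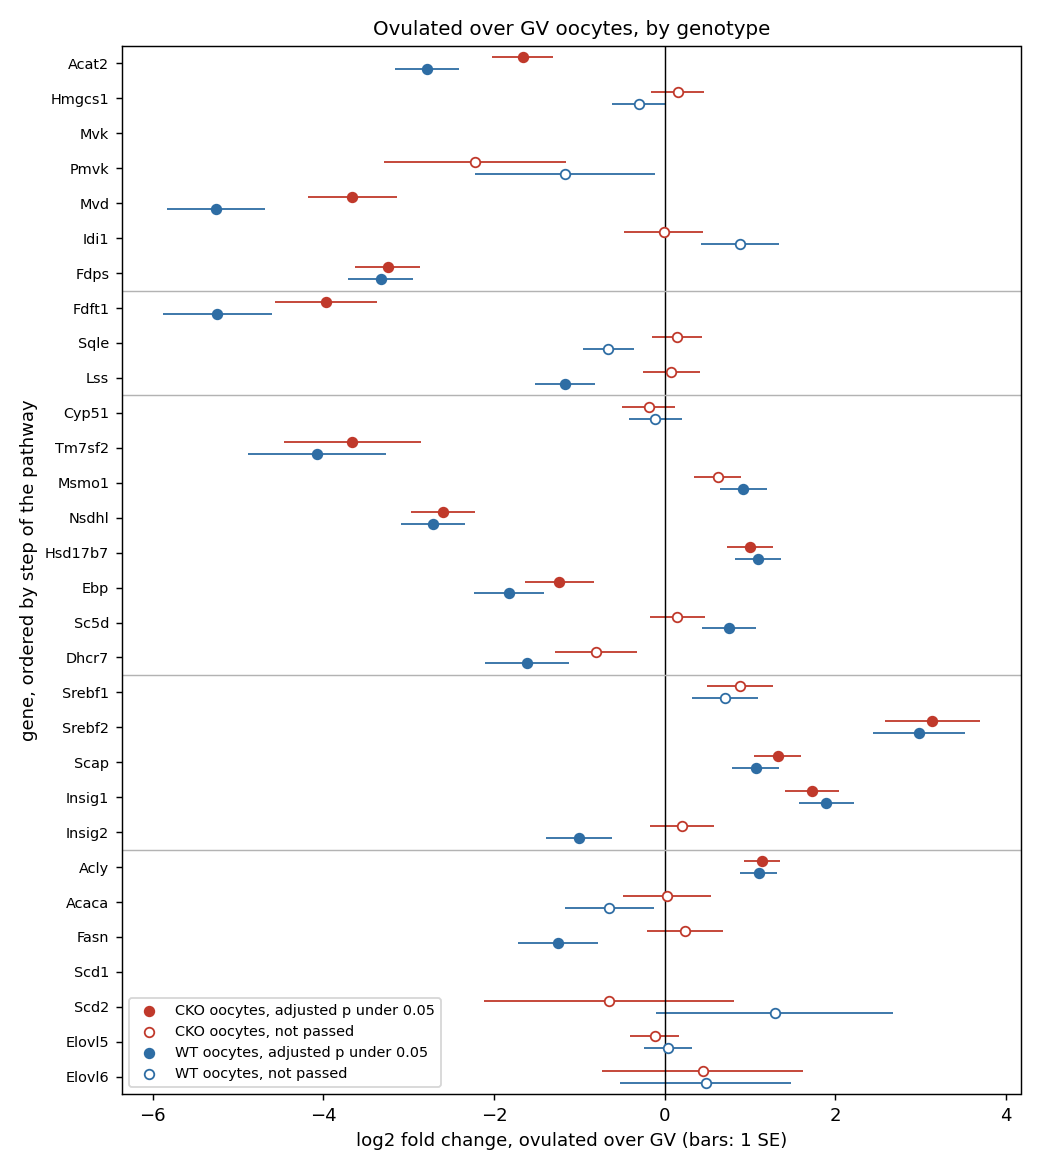
Log2 fold change, ovulated over GV, of each pathway gene tested, in CKO oocytes (red, upper point of a pair) and WT oocytes (blue, lower point), with bars of 1 SE. Filled points passed the test, and the long leftward changes are those of Mvd, Fdft1, Tm7sf2 and Fdps, while Srebf2 lies farthest to the right in both genotypes.

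Of the mevalonate steps, Mvd, Fdps and Acat2 fell at ovulation in both genotypes. Mvd encodes mevalonate diphosphate decarboxylase (gene ID 192156, chromosome 8, 122433596 to 122443422 of GRCm38.p6, as for all positions here). Mvd had 0.558, 0.603 and 0.202 CPM in ovulated CKO libraries and 0.106, 0.292 and 0.270 CPM in ovulated WT libraries, against 6.13, 4.80, 3.16 and 9.39 CPM in GV CKO libraries and 13.1, 7.41, 5.20 and 9.55 CPM in GV WT libraries. The 6 ovulated libraries lay below the 8 GV libraries, and the ovulated counts were low, between 3 and 22 per library. Its log2 fold change was -3.66 (SE 0.521, edgeR adjusted p = 3.64e-05) in CKO oocytes and -5.26 (SE 0.575, edgeR adjusted p = 2.26e-06) in WT oocytes, which is 38.4-fold lower in ovulated WT oocytes. Fdps makes farnesyl diphosphate, the branch point towards sterols, dolichol, ubiquinone and prenylated proteins (gene ID 110196, chromosome 3, 89093588 to 89101967). Fdps had 2.95, 2.27 and 1.25 CPM in ovulated CKO libraries and 2.23, 2.57 and 3.28 CPM in ovulated WT libraries, against 16.7, 12.5, 29.98 and 22.8 CPM in GV CKO libraries and 34.5, 23.7, 29.2 and 20.8 CPM in GV WT libraries. Again no ovulated library reached a GV library, and the changes were -3.25 (SE 0.382, edgeR adjusted p = 8.96e-06) in CKO oocytes and -3.33 (SE 0.382, edgeR adjusted p = 3.34e-06) in WT oocytes. Acat2 is the cytosolic acetoacetyl-CoA thiolase that opens the pathway (gene ID 110460, chromosome 17, 12943042 to 12960725). For Acat2 the values were 1.27, 2.33 and 1.48 CPM in ovulated CKO libraries and 0.886, 0.992 and 1.62 CPM in ovulated WT libraries, against 4.40, 5.64, 6.06 and 5.47 CPM in GV CKO libraries and 11.9, 6.60, 6.55 and 7.18 CPM in GV WT libraries. The stages did not overlap, with changes of -1.67 (SE 0.355, edgeR adjusted p = 0.000898) in CKO oocytes and -2.79 (SE 0.374, edgeR adjusted p = 1.23e-05) in WT oocytes. With scaling to total counts Acat2 no longer passed in CKO oocytes (adjusted p = 0.0548).

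The other mevalonate genes did not pass between stages in either genotype. Hmgcs1 (gene ID 208715, chromosome 13, 119690351 to 119708260), whose promoter is printed above, had 535, 378 and 334 CPM in ovulated CKO libraries and 275, 366 and 264 CPM in ovulated WT libraries, against 362, 389.9, 288 and 457 CPM in GV CKO libraries and 225, 498, 255 and 513 CPM in GV WT libraries. All 4 groups overlapped, and the change was 0.15 (SE 0.311, edgeR adjusted p = 0.694) in CKO oocytes and -0.30 (SE 0.314, edgeR adjusted p = 0.407) in WT oocytes. Idi1, isopentenyl-diphosphate isomerase, ranged from 14.9 to 111 CPM over the ovulated WT libraries and from 33.4 to 42.1 CPM over the GV WT libraries, with a change of 0.88 (SE 0.461, edgeR adjusted p = 0.103). Pmvk reached 0.329 CPM in ovulated CKO libraries and 0.408 CPM in ovulated WT libraries, against 2.82 CPM in GV CKO libraries and 0.790 CPM in GV WT libraries, and its SE was above 1 in both stage comparisons.

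Fdft1 took the lead of the pathway in GV oocytes and lost it in ovulated oocytes. It joins farnesyl diphosphates into squalene, the first step given to sterols alone (gene ID 14137, chromosome 14, 63145150 to 63181687). Fdft1 had 127, 172 and 20.1 CPM in ovulated CKO libraries and 23.4, 55.1 and 38.9 CPM in ovulated WT libraries, against 1251, 2101, 1106 and 2208 CPM in GV CKO libraries and 1222, 1475, 1156 and 2088 CPM in GV WT libraries. The highest ovulated library, at 172 CPM, was far below the lowest GV library, at 1106 CPM. Its log2 fold change was -3.97 (SE 0.596, edgeR adjusted p = 5.51e-05) in CKO oocytes, or 15.7-fold lower, and -5.25 (SE 0.638, edgeR adjusted p = 5.25e-06) in WT oocytes, or 37.95-fold lower. Exons of Fdft1 and Ctsb, a lysosomal protease gene on the opposite strand, share 774 bases, and counting by strand was not stated, so reads there cannot be assigned to one of them. Ctsb averaged 11.3 ± 4.71 CPM in ovulated CKO libraries and 7.99 ± 3.47 CPM in ovulated WT libraries, against 88.2 ± 28.4 CPM in GV CKO libraries and 89.2 ± 21.6 CPM in GV WT libraries (SD), below Fdft1 in each group.

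The other genes of the squalene and lanosterol steps, Sqle and Lss, moved less than Fdft1. Lss closes the ring to lanosterol (gene ID 16987, chromosome 10, 76531565 to 76557139) and had 4.12, 6.93 and 3.26 CPM in ovulated CKO libraries and 1.74, 2.83 and 2.77 CPM in ovulated WT libraries, against 4.18, 4.70, 4.34 and 4.86 CPM in GV CKO libraries and 7.86, 5.24, 3.69 and 5.28 CPM in GV WT libraries. The 3 ovulated WT libraries lay below the 4 GV WT libraries, whereas the CKO stages overlapped. The change was 0.08 (SE 0.339, edgeR adjusted p = 0.852) in CKO oocytes and -1.17 (SE 0.351, edgeR adjusted p = 0.00808) in WT oocytes, and the WT call was lost with scaling to total counts (-0.81, adjusted p = 0.119). Sqle, squalene epoxidase and a control point of the pathway, did not pass, with 0.14 (SE 0.293, edgeR adjusted p = 0.694) in CKO oocytes and -0.66 (SE 0.298, edgeR adjusted p = 0.0619) in WT oocytes.

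Of the 8 genes that turn lanosterol into cholesterol, Tm7sf2, Nsdhl and Ebp fell and Hsd17b7 rose in both genotypes. Tm7sf2, a sterol C14 reductase (gene ID 73166, chromosome 19, 6062821 to 6067850), had 0.403, 0.0548 and 0.0673 CPM in ovulated CKO libraries and 0, 0.117 and 0.439 CPM in ovulated WT libraries, against 3.13, 1.88, 1.40 and 2.65 CPM in GV CKO libraries and 4.21, 3.19, 3.36 and 2.01 CPM in GV WT libraries. It was close to 0 in the ovulated libraries, where its counts did not exceed 13. The changes were -3.66 (SE 0.803, edgeR adjusted p = 0.00110) in CKO oocytes and -4.08 (SE 0.811, edgeR adjusted p = 0.000379) in WT oocytes. Lbr, not among these 8 genes, encodes another sterol C14 reductase. Lbr averaged 164 FPKM in ovulated CKO and 82.6 FPKM in ovulated WT libraries, against 92.2 FPKM in GV CKO and 75.1 FPKM in GV WT libraries. Nsdhl, a sterol dehydrogenase of C4 demethylation (gene ID 18194, chromosome X, 72918521 to 72958528), had 7.60, 7.95 and 2.86 CPM in ovulated CKO libraries and 6.55, 3.44 and 9.06 CPM in ovulated WT libraries, against 27.4, 45.5, 41.5 and 34.7 CPM in GV CKO libraries and 44.4, 40.3, 42.2 and 39.9 CPM in GV WT libraries. The stages were far apart in both genotypes, and the changes were -2.60 (SE 0.378, edgeR adjusted p = 4.32e-05) in CKO oocytes and -2.71 (SE 0.380, edgeR adjusted p = 1.75e-05) in WT oocytes. Ebp, a sterol isomerase (gene ID 13595, chromosome X, 8185329 to 8193512), had 1.05, 1.45 and 1.48 CPM in ovulated CKO libraries and 0.531, 1.23 and 1.72 CPM in ovulated WT libraries, against 2.75, 2.62, 4.15 and 2.98 CPM in GV CKO libraries and 3.45, 5.88, 3.55 and 3.67 CPM in GV WT libraries. Ovulated and GV libraries did not overlap, with -1.23 (SE 0.404, edgeR adjusted p = 0.0158) in CKO oocytes and -1.83 (SE 0.412, edgeR adjusted p = 0.00106) in WT oocytes. The CKO call of Ebp was lost with scaling to total counts (adjusted p = 0.246) and without ovulated CKO replicate 1 (adjusted p = 0.0639).

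Hsd17b7 is the ketoreductase that works with NSDHL in C4 demethylation (gene ID 15490, chromosome 1, 169949535 to 169969242), and it moved opposite to Nsdhl. Hsd17b7 had 57.3, 59.3 and 83.2 CPM in ovulated CKO libraries and 73.9, 36.3 and 65.03 CPM in ovulated WT libraries, against 24.4, 39.1, 41.6 and 27.6 CPM in GV CKO libraries and 25.96, 27.2, 30.9 and 25.6 CPM in GV WT libraries. Within each genotype every GV library lay below every ovulated library, and the changes were 1.01 (SE 0.269, edgeR adjusted p = 0.00461) in CKO oocytes and 1.09 (SE 0.269, edgeR adjusted p = 0.00211) in WT oocytes. Msmo1, the methylsterol monooxygenase that starts C4 demethylation (gene ID 66234, chromosome 8, 64718123 to 64733578), had 26.2, 25.7 and 48.4 CPM in ovulated CKO libraries and 50.97, 31.5 and 58.1 CPM in ovulated WT libraries, against 19.1, 24.3, 26.2 and 17.2 CPM in GV CKO libraries and 24.7, 25.1, 24.9 and 24.1 CPM in GV WT libraries. The WT stages did not overlap and the CKO stages did, with 0.62 (SE 0.275, edgeR adjusted p = 0.0639) in CKO oocytes and 0.92 (SE 0.274, edgeR adjusted p = 0.00759) in WT oocytes. The 3 enzymes that act together on C4 were therefore not moved in 1 direction in ovulated WT oocytes, where Msmo1 and Hsd17b7 rose and Nsdhl fell.

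The last steps were less clear. Dhcr7, the reductase that completes cholesterol from 7-dehydrocholesterol (gene ID 13360, chromosome 7, 143823167 to 143848410), had 1.09, 3.04 and 0.942 CPM in ovulated CKO libraries and 1.74, 0.525 and 1.83 CPM in ovulated WT libraries, against 2.32, 2.87, 3.67 and 2.98 CPM in GV CKO libraries and 5.53, 3.15, 4.61 and 3.32 CPM in GV WT libraries. It fell between WT stages, -1.61 (SE 0.491, edgeR adjusted p = 0.00884), and its change in CKO oocytes was -0.80 (SE 0.477, edgeR adjusted p = 0.161). Sc5d, the desaturase before it (gene ID 235293, chromosome 9, 42251592 to 42264300), had 184, 144 and 206 CPM in ovulated CKO libraries and 262, 111 and 238 CPM in ovulated WT libraries, against 103, 175, 179 and 184 CPM in GV CKO libraries and 86.5, 148, 89.9 and 158 CPM in GV WT libraries. The WT stages overlapped, and the change of 0.76 (SE 0.318, edgeR adjusted p = 0.0461) passed narrowly, losing the call in the fit of WT libraries alone (adjusted p = 0.0652) and without GV WT replicate 1 or 3 or ovulated WT replicate 1 or 3 (adjusted p from 0.117 to 0.191). Cyp51, lanosterol demethylase, did not pass, with -0.18 (SE 0.312, edgeR adjusted p = 0.631) in CKO oocytes and -0.11 (SE 0.309, edgeR adjusted p = 0.773) in WT oocytes.

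The control genes rose in ovulated oocytes, apart from Srebf1, which did not pass, and Insig2. Srebf2, which encodes the SREBP most tied to cholesterol genes (gene ID 20788, chromosome 15, 82147269 to 82205379), had 4.56, 7.10 and 4.58 CPM in ovulated CKO libraries and 6.02, 8.52 and 6.86 CPM in ovulated WT libraries, against 1.56, 0.247, 0.367 and 0.221 CPM in GV CKO libraries and 1.02, 0.469, 1.32 and 0.754 CPM in GV WT libraries. Its GV counts were low, between 4 and 40 per library, and all 6 ovulated libraries were higher. The changes were 3.14 (SE 0.553, edgeR adjusted p = 0.000199) in CKO oocytes and 2.98 (SE 0.538, edgeR adjusted p = 0.000163) in WT oocytes, the largest rises of the list. Scap, the sterol sensor that escorts SREBP (gene ID 235623, chromosome 9, 110333288 to 110384949), had 137, 177 and 136 CPM in ovulated CKO libraries and 98.5, 156 and 96.6 CPM in ovulated WT libraries, against 89.7, 63.6, 44.8 and 40.9 CPM in GV CKO libraries and 59.8, 57.7, 57.6 and 48.4 CPM in GV WT libraries. The stages did not overlap in either genotype, with 1.32 (SE 0.273, edgeR adjusted p = 0.000687) in CKO oocytes and 1.07 (SE 0.272, edgeR adjusted p = 0.00268) in WT oocytes. Insig1, the retention protein of SCAP (gene ID 231070, chromosome 5, 28071412 to 28078662), had 716, 502 and 638 CPM in ovulated CKO libraries and 938, 312 and 546 CPM in ovulated WT libraries, against 158, 148, 252 and 187 CPM in GV CKO libraries and 175, 129.8, 184 and 153 CPM in GV WT libraries. Every ovulated library was above every GV library, and the changes were 1.73 (SE 0.318, edgeR adjusted p = 0.000280) in CKO oocytes and 1.90 (SE 0.319, edgeR adjusted p = 8.79e-05) in WT oocytes.

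Insig2, the second retention protein (gene ID 72999, chromosome 1, 121304353 to 121332662), went the other way in WT oocytes. Insig2 had 5.27, 3.26 and 2.63 CPM in ovulated CKO libraries and 1.38, 1.87 and 1.96 CPM in ovulated WT libraries, against 2.83, 2.72, 4.67 and 2.65 CPM in GV CKO libraries and 3.98, 2.81, 4.97 and 2.16 CPM in GV WT libraries. The ovulated WT libraries lay below the GV WT libraries while the CKO stages overlapped, with 0.21 (SE 0.373, edgeR adjusted p = 0.656) in CKO oocytes and -1.005 (SE 0.387, edgeR adjusted p = 0.0316) in WT oocytes. The WT call was lost with scaling to total counts (adjusted p = 0.231) and without GV WT replicate 1 or 3 or ovulated WT replicate 1 or 3 (adjusted p from 0.0504 to 0.106). Srebf1, which encodes the SREBP tied to fatty acid genes, changed by 0.89 (SE 0.384, edgeR adjusted p = 0.0593) in CKO oocytes and 0.71 (SE 0.383, edgeR adjusted p = 0.115) in WT oocytes.

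**Figure D3:**
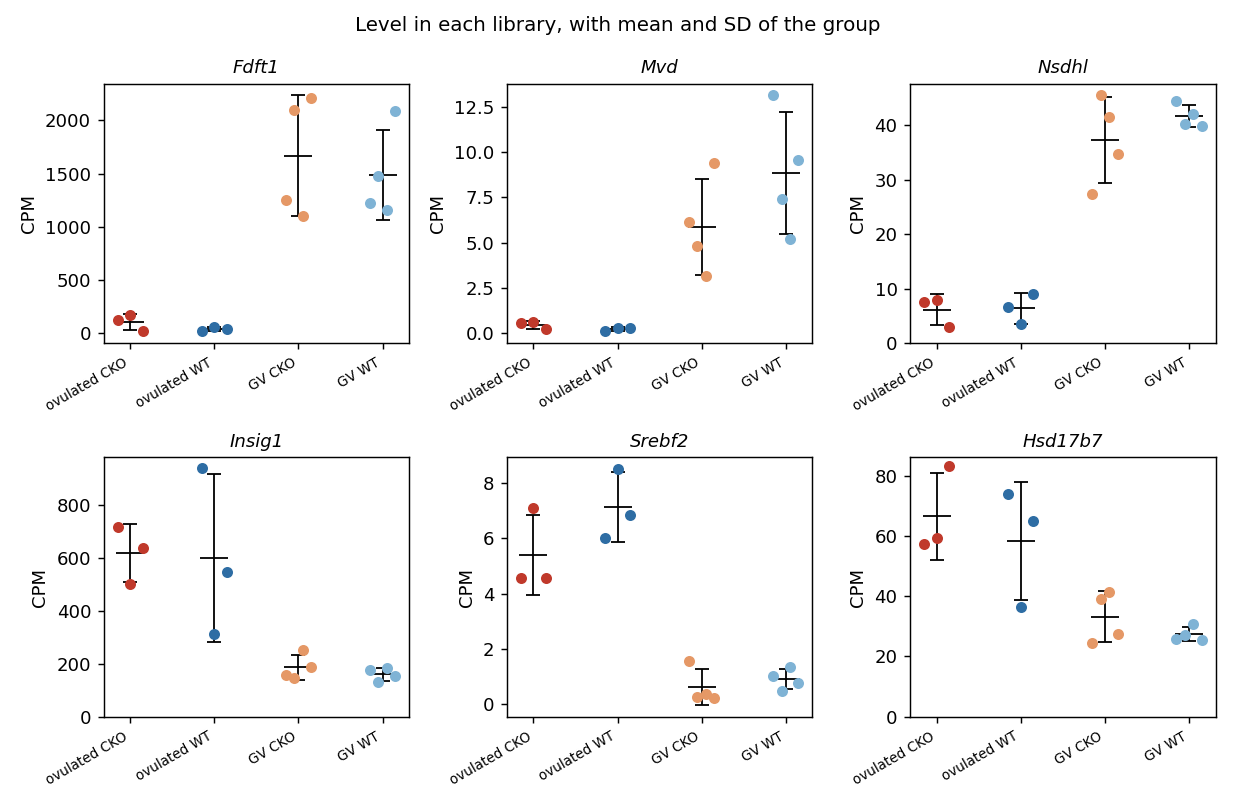
CPM of 6 pathway genes in each library, in the order ovulated CKO, ovulated WT, GV CKO and GV WT, with points for libraries and the black bars for mean and SD. Fdft1, Mvd and Nsdhl are lower and Insig1 and Srebf2 higher in all 6 ovulated than in all 8 GV libraries, and for Hsd17b7 this holds within each genotype.

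Of the fatty acid genes, Acly rose in both genotypes and Fasn fell in WT oocytes. Acly makes cytosolic acetyl-CoA from citrate, the carbon source of both pathways (gene ID 104112, chromosome 11, 100476352 to 100528000), and had 26.5, 21.6 and 29.1 CPM in ovulated CKO libraries and 26.6, 26.6 and 26.6 CPM in ovulated WT libraries, against 13.2, 11.4, 12.1 and 9.83 CPM in GV CKO libraries and 12.1, 12.6, 13.6 and 11.3 CPM in GV WT libraries. The stages did not overlap, with 1.15 (SE 0.213, edgeR adjusted p = 0.000310) in CKO oocytes and 1.10 (SE 0.213, edgeR adjusted p = 0.000296) in WT oocytes. Fasn, fatty acid synthase (gene ID 14104, chromosome 11, 120805958 to 120825166), had 5.92, 12.7 and 2.66 CPM in ovulated CKO libraries and 1.38, 3.27 and 3.65 CPM in ovulated WT libraries, against 7.31, 5.25, 5.73 and 5.86 CPM in GV CKO libraries and 9.11, 5.03, 7.44 and 4.72 CPM in GV WT libraries. The WT stages did not overlap and the CKO stages did, with 0.24 (SE 0.445, edgeR adjusted p = 0.667) in CKO oocytes and -1.25 (SE 0.465, edgeR adjusted p = 0.0271) in WT oocytes. The WT call of Fasn was lost with scaling to total counts (adjusted p = 0.160) and without GV WT replicate 1 or 3 or ovulated WT replicate 1 (adjusted p from 0.0526 to 0.124).

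Elovl5, which elongates polyunsaturated fatty acids, was abundant and had changes of -0.12 (SE 0.283, edgeR adjusted p = 0.742) in CKO oocytes and 0.04 (SE 0.282, edgeR adjusted p = 0.905) in WT oocytes. Acaca, Scd2 and Elovl6 did not pass in either genotype, and Scd1, under 0.5 CPM in every library, was too low to test. Scd2 was picked out after its values were seen: it had 0.0310, 1.15 and 0 CPM in ovulated CKO libraries, against 0, 0 and 4.93 CPM in ovulated WT libraries. Ovulated WT replicate 3, the library with 4.93 CPM, also held the highest Srebf1, at 38.4 CPM, and the highest Idi1, at 111 CPM. The same library had the cumulus marker Tnfaip6 at 9.97 FPKM, against at most 1.22 FPKM in the other ovulated libraries, and Fst at 2.55 FPKM. The granulosa and cumulus markers did not move as 1 there. Among ovulated WT libraries it was the highest for Inhba, at 3.38 CPM, and Cyp11a1, at 4.06 CPM. It was the lowest for Kitl, at 4.73 CPM, and Nr5a2, at 10.1 CPM. The part of such markers in these values of Scd2, Srebf1 and Idi1 was not tested.

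Between genotypes no pathway gene passed in ovulated oocytes. In edgeR's quasi-likelihood test of CKO over WT, 25 were tested and 0 passed, where 0.0083% of 12044 genes passed, which is 1 gene. At an unadjusted p under 0.05 there were 3 of the 25, Fdft1, Fasn and Insig2, against 935 of all 12044 genes. DESeq2 called none of the 25, and 114 genes in all. Of the 25 log2 fold changes 14 were above 0, where 6016 of all 12044 were, with a median of 0.18 against -0.0005 over all genes, and 2 genes, Insig2 and Lss, did not overlap between genotypes, against 10.4% of all genes. The largest difference was that of Fdft1, with 127, 172 and 20.1 CPM in ovulated CKO libraries, against 23.4, 55.1 and 38.9 CPM in ovulated WT libraries. CKO replicates 1 and 2 were above all WT libraries and CKO replicate 3 below all of them, and the log2 difference, CKO over WT, was 1.39 (SE 0.599, edgeR adjusted p = 0.617). Without ovulated CKO replicate 3 Fdft1 passed, at 1.83 with an edgeR adjusted p of 0.0385, and 201 genes passed in all. Zp3, the zona pellucida gene whose promoter drives Cre in these mice, had 485, 562 and 140.4 FPKM in ovulated CKO libraries, against 99.2, 134 and 122 FPKM in ovulated WT libraries. Replicate 3 was again the lowest CKO library, though for Zp3 it stayed above the WT libraries. Of the 14 oocyte markers, Zp3 among them, 0 passed in edgeR's test of ovulated CKO over WT oocytes, 9 were above 0 and 4 had an unadjusted p under 0.05, with log2 fold changes of 2.90 for Figla, 1.57 for Zp3, 1.68 for Zp2 and 0.91 for Zp1. Cyb5a, of the electron donor list, was at 2.91 and did not pass. These genes were taken up after their values were seen, and their part in the Fdft1 values was not tested.

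The next 5 genes by p-value in ovulated oocytes did not pass either. Fasn had 5.92, 12.7 and 2.66 CPM in ovulated CKO libraries, against 1.38, 3.27 and 3.65 CPM in ovulated WT libraries, a log2 difference of 1.33 (SE 0.597, edgeR adjusted p = 0.641). CKO replicate 3 again stood lowest in its group, within the WT range. Insig2 had 5.27, 3.26 and 2.63 CPM in ovulated CKO libraries, against 1.38, 1.87 and 1.96 CPM in ovulated WT libraries, and the 3 CKO libraries lay above the 3 WT libraries, with 1.06 (SE 0.481, edgeR adjusted p = 0.641). Lss had 4.12, 6.93 and 3.26 CPM in ovulated CKO libraries, against 1.74, 2.83 and 2.77 CPM in ovulated WT libraries, also without overlap, with 0.94 (SE 0.472, edgeR adjusted p = 0.687). Insig2 and Lss were among the 6 genes that passed between stages in WT oocytes alone, and both comparisons use the same ovulated libraries. Hmgcs1 differed by 0.43 (SE 0.282, edgeR adjusted p = 0.742) and Sqle by 0.57 (SE 0.397, edgeR adjusted p = 0.759), with overlap in both.

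In GV oocytes none of the 27 genes tested passed between genotypes, where 0.0245% of 12265 genes did, which is 3 genes. At an unadjusted p under 0.05 there was 1 of the 27, Acat2, against 704 of all 12265 genes. DESeq2 called none of the 27, and 39 genes in all. Their log2 fold changes, CKO over WT, were above 0 in 9 and below 0 in 18, where 6483 of all 12265 genes were above 0, with a median of -0.14 against 0.02 over all genes, and scaling to total counts moved the median of all genes by -0.16. Acat2 had 4.40, 5.64, 6.06 and 5.47 CPM in GV CKO libraries, against 11.9, 6.60, 6.55 and 7.18 CPM in GV WT libraries. Its 4 CKO libraries lay below its 4 WT libraries, the single gene of the list without overlap, against 3.82% of all genes, and the change was -0.59 (SE 0.265, edgeR adjusted p = 0.834). Acat2 had fractional counts in all 14 libraries, a sign of reads shared with another gene, so its values are uncertain to that extent.

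The next 5 by p-value in GV oocytes overlapped between genotypes. Cyp51 had 3.68, 3.66, 5.51 and 4.59 CPM in GV CKO libraries, against 7.14, 5.37, 5.56 and 6.03 CPM in GV WT libraries, with -0.47 (SE 0.242, edgeR adjusted p = 0.834). Dhcr7 had 2.32, 2.87, 3.67 and 2.98 CPM in GV CKO libraries, against 5.53, 3.15, 4.61 and 3.32 CPM in GV WT libraries, with -0.50 (SE 0.283, edgeR adjusted p = 0.836). For both genes most CKO libraries lay at the low end of the joint range. Srebf1 had 13.7, 9.25, 6.76 and 8.67 CPM in GV CKO libraries, against 16.4, 10.3, 12.3 and 12.3 CPM in GV WT libraries, with -0.43 (SE 0.252, edgeR adjusted p = 0.836). Mvd differed by -0.60 (SE 0.365, edgeR adjusted p = 0.841) and Sc5d by 0.42 (SE 0.257, edgeR adjusted p = 0.841). Fdft1, the most abundant mRNA of the list at this stage, differed by 0.17 (SE 0.308, edgeR adjusted p = 0.932) and Insig1 by 0.21 (SE 0.216, edgeR adjusted p = 0.887).

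**Figure D4:**
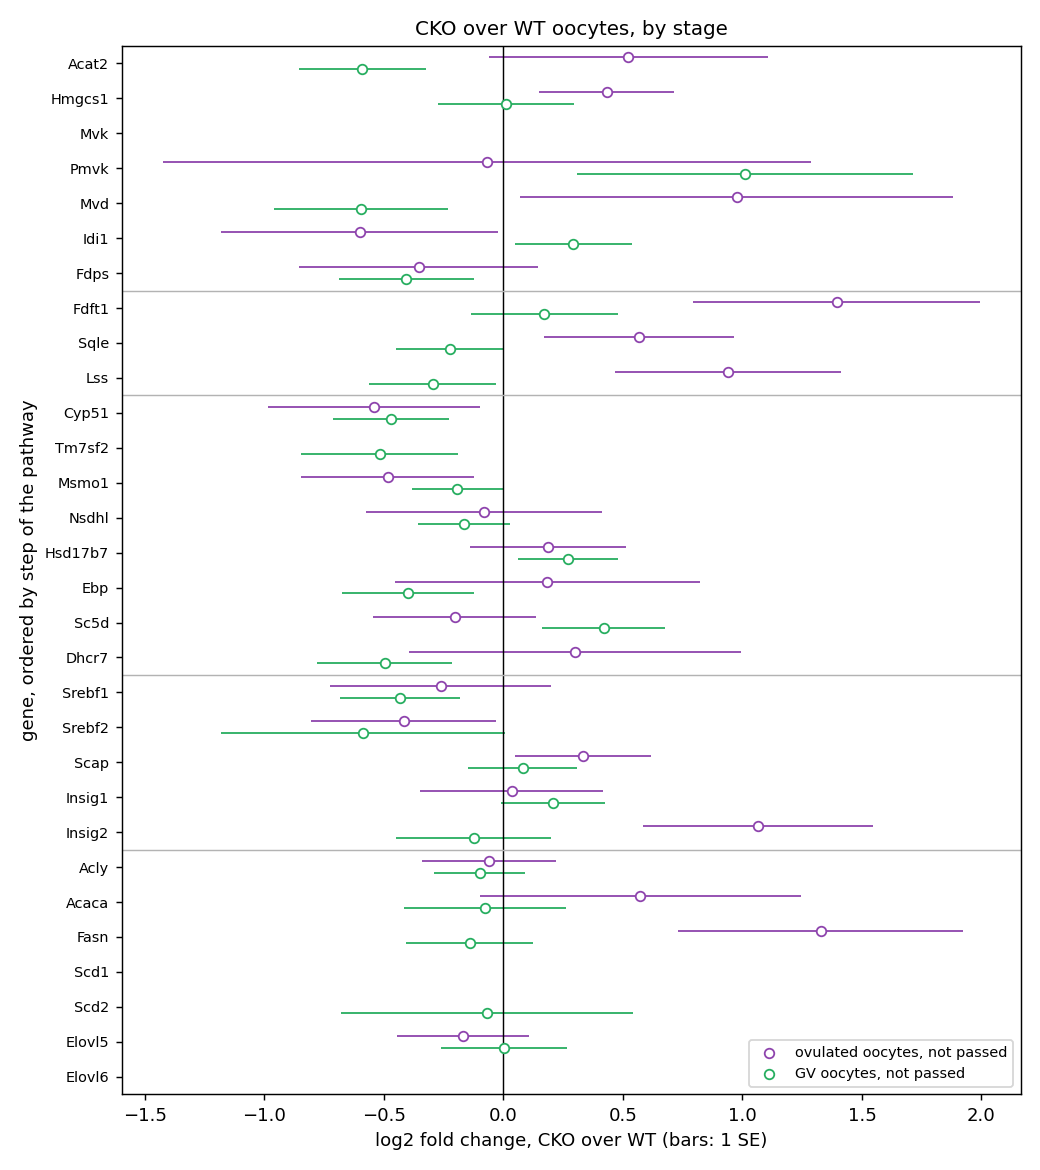
Log2 fold change, CKO over WT, of each pathway gene tested, in ovulated oocytes (violet, upper point of a pair) and GV oocytes (green, lower point), with bars of 1 SE. All points are open because none passed, and Fdft1, Fasn and Insig2 lie farthest to the right among the ovulated points.

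Whether the CKO effect differed between stages was tested as an interaction in the fit of the 14 libraries. None of 28 genes passed, where 0.0076% of 13158 genes did, which is 1 gene. At an unadjusted p under 0.05 there were 5 of the 28, against 1205 of all 13158 genes, and DESeq2 called none of the 28 and 64 genes in all. The 5 were Lss at 1.25 (SE 0.483, edgeR adjusted p = 0.438), Fasn at 1.49 (SE 0.638, edgeR adjusted p = 0.497), Acat2 at 1.12 (SE 0.486, edgeR adjusted p = 0.498), Mvd at 1.60 (SE 0.702, edgeR adjusted p = 0.509) and Insig2 at 1.21 (SE 0.534, edgeR adjusted p = 0.511), followed by Sqle at 0.80 (SE 0.416, edgeR adjusted p = 0.585). A positive value means that CKO over WT was higher in ovulated than in GV oocytes, and the median was 0.17 over the pathway genes and 0.004 over all genes. The 6 genes that passed the stage test in WT oocytes alone are therefore not shown to differ between genotypes.

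Genes around the pathway were read from 4 further lists, and their ovulated over GV values follow in CKO and then WT oocytes. Of the genes of sterol uptake, transport and storage, 11 were tested: 1 rose and 4 fell in CKO oocytes, and 0 rose and 7 fell in WT oocytes. In WT oocytes 7 of the 11 had an unadjusted p under 0.05, against 8836 of all 13158 genes, and the share that passed is to be read, as for the lists that follow, against 55.7% of all genes in CKO and 63.7% in WT oocytes. Soat2, which esterifies cholesterol, changed by -2.32 and -1.99, and Npc2, which carries cholesterol out of lysosomes, by -1.28 and -1.43. Lrp8, a lipoprotein receptor, rose in CKO oocytes by 1.55, with 0.43 in WT oocytes. Of 17 genes of SREBP processing and control, 9 rose and 4 fell in CKO oocytes and 8 rose and 4 fell in WT oocytes. The ones that rose included Rnf145, a ligase that acts on SCAP, by 1.75 and 2.17 and Fbxw7, which marks nuclear SREBP for degradation, by 1.95 and 2.10. Mbtps1 and Mbtps2, of SREBP processing, were higher in ovulated libraries too. Mbtps1 averaged 39.4 and 30.3 CPM in ovulated CKO and WT libraries, against 11.9 and 12.3 CPM in GV CKO and WT libraries. Mbtps2 averaged 43.0 and 36.3 CPM, against 15.4 and 13.2 CPM. The subunits of the kinase AMPK were divided: the catalytic Prkaa1 fell by 3.32 and 4.32 and Prkag1 fell by 2.59 and 3.89, while Prkab2 rose by 1.82 and 1.54.

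Of 10 genes of isoprenoid branches and electron donors, 1 rose and 4 fell in each genotype. Nus1 and Dhdds encode the 2 subunits of the enzyme that makes the dolichol backbone, and Nus1 changed by 2.42 in CKO and 2.36 in WT oocytes, while Dhdds changed by -3.02 and -4.08. Cyb5a, a cytochrome b5 and electron donor of sterol and fatty acid desaturases, changed by -2.43 in CKO oocytes and -5.21 in WT oocytes. Cyb5b, of the same list, was not lower in ovulated oocytes. It averaged 92.7 CPM in ovulated CKO and 115 CPM in ovulated WT libraries, against 91.8 CPM in GV CKO and 80.9 CPM in GV WT libraries. Of 20 genes of fatty acid supply, elongation and desaturation, 2 rose and 8 fell in CKO oocytes and 4 rose and 8 fell in WT oocytes. Slc25a1, the citrate carrier upstream of ACLY, changed by -1.78 in CKO oocytes and was 15.99-fold lower in ovulated than in GV WT oocytes. Elovl1, an elongase of very long chains, changed by -2.72 and -3.44. Hacd2, a dehydratase of elongation, rose by 0.93 and 1.03. Unless given as a fold or in CPM, values of these genes are log2 fold changes. Each gene named with such a change or a fold passed edgeR's test in both genotypes, apart from Lrp8 in WT oocytes.

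Some values rest on reads that other genes may share. Besides Acat2, fractional counts occurred in all 14 libraries for Idi1, in 11 for Fdft1, in 8 for Scd2 and in 7 for Scd1. Exons overlap a gene on the opposite strand for Cyp51 (Akap9), Srebf1 (Rai1), Scap, Hmgcs1, Idi1 and Lss, and a gene on the same strand for Fdps and, by 14 bases, Tm7sf2 (Vps51). Whether counting used strand was not given in the sources used here, and the share of such reads was not tested.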

How the data were processed

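RNA was measured in 14 mouse oocyte libraries by SMART-Seq2, per the labels. The authors deposited expected counts per gene, not scaled to depth: in each library 14.5% to 16.3% of the entries were not whole numbers. They were rounded to whole counts here. The FPKM values were computed by the authors and deposited beside the counts. The build was mm10, per the submitters' processing notes, and the aligner, counting tool and annotation were not given in the sources used here.

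Genes were tested with edgeR 4.0.16 in R 4.3.3 (filterByExpr at 10 counts, TMM scaling and the quasi-likelihood F-test with robust dispersion), and p-values were adjusted by Benjamini-Hochberg over all genes tested, with a threshold of 0.05. CKO and WT were compared from the libraries of one stage at a time, and stages and the interaction in a fit of all 14 libraries on genes in both tables. Printed CPM are counts over the TMM-scaled library size of that fit, per 1e+06. The procedure was tested on simulated counts of well-counted genes, few of them changed, equally up and down. That simulation does not cover genes of low counts, or comparisons where most genes change. The alternatives were DESeq2 1.42.0, scaling to total counts, no filter on low counts, a replicate block, other sets of libraries in the fit and leaving out each library. Named in full were the pathway genes that passed, up to 8 per direction, or else the 6 with the smallest p-values, and up to 3 per direction of each further list. The genes, lists and tests were chosen with earlier results of these data known. Some genes of the pathway are not reported here. Without molecular identifiers PCR copies are not independent molecules.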

Additional observations from a re-analysis of the deposited data

Results flagged for a closer look

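In 5 of 49 groups of 4 GV libraries with a mean of at least 1 CPM, 1 library stood apart from the other 3 by Dixon's ratio, where chance gives about 1 in 20. Sc5d was at 102.8 CPM in GV CKO replicate 1, below the other GV CKO libraries, and Insig2 at 4.67 CPM in GV CKO replicate 3 and Pmvk at 2.82 CPM in GV CKO replicate 4, both above theirs. Acat2 was at 11.94 CPM in GV WT replicate 1 and Ebp at 5.88 CPM in GV WT replicate 2, both above the other GV WT libraries. Groups of 3 ovulated libraries are too small for this ratio. Their cause was not tested.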

How the results depend on the processing

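Of 612 values of named pathway genes under the alternatives, 593 kept their direction and side of the threshold, 18 lost the call, 1 gained it and 0 reversed. For genotype and the interaction the named genes had no call to lose, so a loss was possible in the stage comparisons alone. In WT oocytes 14 of 18 stage calls, and in CKO oocytes 10 of 12, held under each of 12 alternatives. The cause of the changes below was not tested.

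DESeq2 called 39 genes between genotypes in GV oocytes, 114 in ovulated oocytes and 64 in the interaction, with no pathway gene among them, and the fit of the 14 libraries called 64 in ovulated oocytes. Scaling to total counts set the median log2 fold change of the pathway genes to -0.34 for genotype in GV oocytes, 0.67 for stage in CKO oocytes, -0.0755 for stage in WT oocytes and 0.47 for the interaction. Without a filter on low counts it was -0.0533 for genotype in ovulated oocytes and -0.26 for stage in WT oocytes, in the fit of the 14 libraries 0.0146 for genotype in ovulated oocytes, and in the fit of CKO libraries alone 0.15 for stage.

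Leaving out 1 library at a time gave 3 to 6 genes called between genotypes in GV oocytes and 1 to 201 in ovulated oocytes, with 0 to 1 pathway genes there, and 0 to 498 in the interaction with 0 pathway genes. The 201 and 498 were without ovulated CKO replicate 3. The pathway genes called between stages were 12 to 14 in CKO and 15 to 20 in WT oocytes. Their median was -0.27 to -0.12 for genotype in GV oocytes and -0.0704 to 0.21 in ovulated oocytes, -0.12 to 0.21 for stage in CKO and -0.83 to -0.31 in WT oocytes, and 0.0854 to 0.54 in the interaction.

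The labels number replicates alike in the groups, and r of the deviations of same-numbered libraries ran from -0.399 to 0.694 over 13 pairs. Between GV CKO and GV WT it was 0.277, 0.443 and 0.694 for replicates 2, 3 and 4, each above that with any other number, and -0.316 for replicate 1. Since not every pair was above 0.1 in any of the comparisons, the numbers were not taken as pairs. With a replicate block 12 pathway genes passed between CKO stages and 18 between WT stages, as without it, 0 in each other comparison, and the interaction called 0 genes in place of 1. Genes with under 1 CPM in ovulated oocytes, such as Mvd and Tm7sf2, have the least depth behind their fold changes.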

Other observations

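The deposited FPKM of Lss used an effective length that differed between libraries. The length implied by its count, total and FPKM ran from 3382 to 6176 bases over 13 libraries, 1.83 times apart, while for Hmgcs1, Insig1 and Sc5d the longest was at most 1.03 times the shortest. FPKM of Lss enter the comparisons only within the summed level of the squalene and lanosterol genes, where Lss was at most 2.38 FPKM in any library, and its CPM do not use a length.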
